A study of Arabidopsis thaliana with 8 samples.

Results

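The genes described here are 2 chitinase family genes, AT2G43590 and AT2G43620, and 2 thionin genes, THI2.1 (AT1G72260) and THI2.2 (AT5G36910), of Arabidopsis thaliana. They were chosen by their measured differences between genotypes on these same arrays, so their own levels and differences are given as a description, with no test. They are 4 of 13350 genes that had a probe set of their own in the probe table, and the array holds 22746 probe sets other than controls. Each is read by a single probe set, a group of short probes against one transcript.

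Signals came from the vegetative shoot apices of plants grown for 20 days in short days, with 2 Affymetrix ATH1 arrays for each of 4 genotypes. The line se-1 p35S::MIR156 carries the se-1 allele of SERRATE (SE) together with a transgene in which the viral 35S promoter, active in most plant tissues, drives a miR156 precursor. The other genotypes were se-1 alone, ago1-27, an allele of ARGONAUTE1, and the wild type Col-0, which carries neither lesion nor the transgene. There was no wild-type line with the transgene, so MIR156 overexpression can be read only within se-1. SE acts in the processing of microRNA precursors, and ARGONAUTE1 is the protein through which microRNAs act on their target transcripts. The labels do not say whether the 2 arrays of a genotype came from separate plants, so the spread between them, and every p-value built on it, may be technical.

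Chitinases are secreted or vacuolar enzymes that cut chitin, the polymer of fungal cell walls and insect cuticles, and plants induce many of them on infection. Thionins are small, basic, cysteine-rich peptides made from longer precursors and toxic to many fungi and bacteria. In Arabidopsis THI2.1 is known as a gene induced by jasmonate and by fungal infection and expressed in flowers and siliques, while THI2.2 is known as a gene expressed in seedlings.

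Every array had been scaled by the authors to a common mean, with medians between 76.6 and 82.4, and the highest of 27 bacterial control probe sets, designed against no plant transcript, lay between 14.2 and 34.1. A signal at or under the highest bacterial control of its own array is called within background. The SE probe set gave 146 ± 22.0 in se-1 p35S::MIR156, 117 ± 0.0955 in se-1, 154.5 ± 20.1 in ago1-27 and 132 ± 4.56 in Col-0 (SD, n = 2 arrays each), with 0 calls by limma and 0 unadjusted p under 0.05 in the 5 comparisons. Of 12 shoot meristem markers only CLV3, the stem cell peptide gene, had a listed probe set, and it was above background on 1 of 8 arrays. Of 14 flower markers, 0 had one, so the label of the tissue rests on little here. The 3' to 5' ratio of the actin controls, a sign of RNA quality, was 3.26 and 3.48 in se-1 p35S::MIR156, 2.97 and 4.22 in se-1, 4.83 and 4.40 in ago1-27, and 3.91 and 2.81 in Col-0.

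AT2G43590 was lowest in the wild type and higher in all 3 other genotypes. Its signal was 33.6 and 30.4 in se-1 p35S::MIR156, 76.8 and 60.1 in se-1, 61.2 and 46.4 in ago1-27, and 6.73 and 11.2 in Col-0. Both Col-0 arrays were within background, and no array of another genotype reached down to them. The mean was 32.0 ± 2.302 in se-1 p35S::MIR156, 68.5 ± 11.8 in se-1, 53.8 ± 10.5 in ago1-27 and 8.98 ± 3.18 in Col-0 (SD, n = 2). Because the wild-type level is only an upper bound, folds against Col-0 are bounds as well: at least 3.24-fold higher in se-1, at least 2.54-fold in ago1-27 and at least 1.52-fold in se-1 p35S::MIR156. These bounds set the geometric mean of a genotype's signals against that of the highest bacterial controls on the Col-0 arrays.

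On the log2(signal + 16) scale used for all differences below, AT2G43590 differed by 1.76 between se-1 and Col-0, by 1.48 between ago1-27 and Col-0 and by 0.95 between se-1 p35S::MIR156 and Col-0 (SE of the fit 0.268 for each). The pseudocount of 16 shrinks differences of dim genes. The arrays of se-1 and ago1-27 overlapped, with a difference of 0.28, so these neighbours in the order did not separate. The arrays of se-1 p35S::MIR156 lay below those of se-1 (-0.81) and below those of ago1-27. The order was therefore se-1 and ago1-27 together, then se-1 p35S::MIR156, then Col-0. Apices are mixtures of cells, and in all results here a change in RNA per cell cannot be told apart from a change in the share of cells that make it.

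AT2G43620, the other chitinase gene, was high in se-1 alone. The signals were 107 and 89.6 in se-1 p35S::MIR156, 236 and 299 in se-1, 111 and 78.9 in ago1-27, and 76.1 and 65.6 in Col-0. Both se-1 arrays lay above the other 6, while se-1 p35S::MIR156 and ago1-27 overlapped and both lay above Col-0 without overlap. Means were 98.4 ± 12.3 in se-1 p35S::MIR156, 268 ± 44.4 in se-1, 94.7 ± 22.3 in ago1-27 and 70.8 ± 7.41 in Col-0 (SD, n = 2). The log2 difference was 1.70 between se-1 and Col-0, 1.36 between se-1 and ago1-27 and -1.31 between se-1 p35S::MIR156 and se-1 (SE of the fit 0.216 for each). Against Col-0 it was 0.40 for se-1 p35S::MIR156 and 0.34 for ago1-27 (SE of the fit 0.216 for each).

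THI2.1 was low in the transgenic line, and its arrays overlapped in the other genotypes. The signals were 12.4 and 11.3 in se-1 p35S::MIR156, 51.0 and 64.3 in se-1, 83.4 and 54.8 in ago1-27, and 51.4 and 59.8 in Col-0. Both arrays of se-1 p35S::MIR156 were within background, and the arrays of the other 3 genotypes all overlapped each other. Means were 11.8 ± 0.742 in se-1 p35S::MIR156, 57.7 ± 9.38 in se-1, 69.1 ± 20.2 in ago1-27 and 55.6 ± 5.91 in Col-0 (SD, n = 2). THI2.1 in se-1 p35S::MIR156 was at least 3.55-fold lower than in se-1, at least 4.19-fold lower than in ago1-27 and at least 3.43-fold lower than in Col-0. On the log2 scale se-1 p35S::MIR156 differed by -1.40 from se-1 and by -1.36 from Col-0, whereas se-1 differed by 0.04 and ago1-27 by 0.23 from Col-0, and se-1 by -0.19 from ago1-27 (SE of the fit 0.261 for each).

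THI2.2, by contrast, was low in Col-0, and its arrays overlapped in the 3 other genotypes. The signals were 486 and 596 in se-1 p35S::MIR156, 552 and 478 in se-1, 456 and 552 in ago1-27, and 251 and 209 in Col-0. No Col-0 array reached any array of another genotype, and those 3 genotypes all overlapped. Means were 541 ± 77.8 in se-1 p35S::MIR156, 515 ± 52.5 in se-1, 504 ± 68.2 in ago1-27 and 230 ± 29.8 in Col-0 (SD, n = 2), and all 8 signals were well above background. The log2 difference from Col-0 was 1.18 for se-1 p35S::MIR156, 1.11 for se-1 and 1.08 for ago1-27 (SE of the fit 0.187 for each). It was 0.06 between se-1 p35S::MIR156 and se-1, and 0.03 between se-1 and ago1-27. The thionin genes therefore separated different genotypes: THI2.1 the transgenic line from the rest, and THI2.2 the wild type from the rest.

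**Figure D1:**
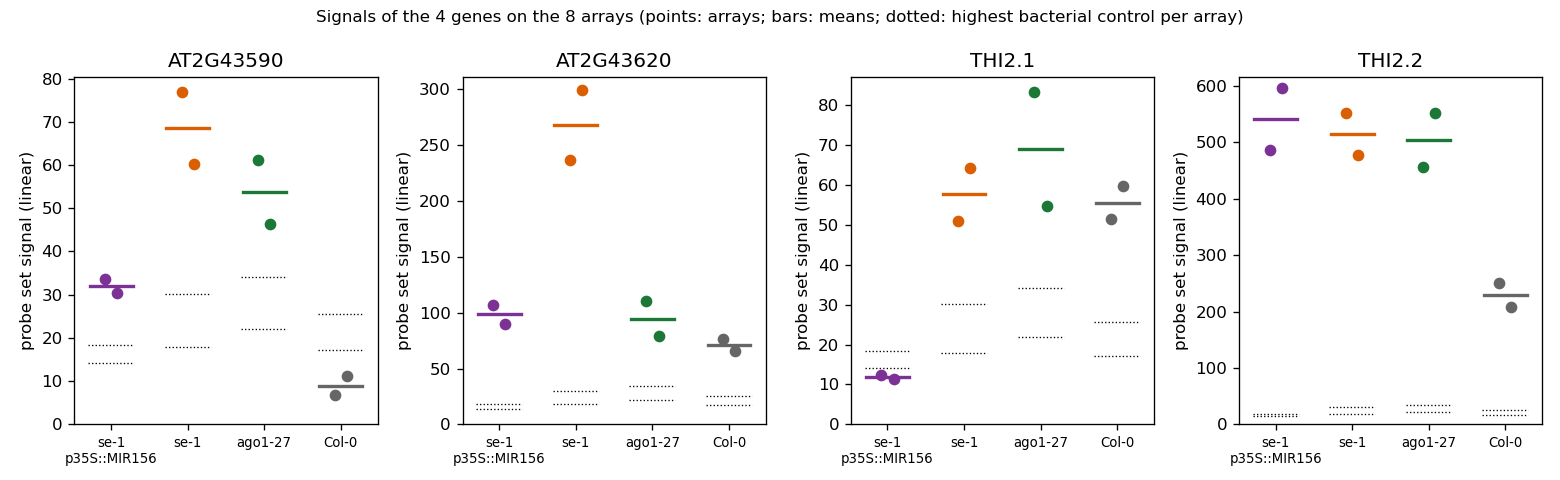
Probe set signals of the 4 genes by genotype, 1 panel per gene with its own signal axis starting at 0. Points are the 2 arrays of each genotype and bars their mean, and dotted lines mark the highest bacterial control of each array. AT2G43590 lies within background in Col-0 and THI2.1 in se-1 p35S::MIR156, AT2G43620 is highest in se-1, and THI2.2 is lowest in Col-0.

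All 4 genes passed the filter on dim probe sets, which is a mean over all 8 arrays. AT2G43590 would have been under its limit of 5.13 on the log2 scale in Col-0, with a mean of 4.64, and THI2.1 in se-1 p35S::MIR156, with 4.80. Both passed through the genotypes where they are brighter, so their passing says nothing about a difference.

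Counted by comparison, 3 of the 4 genes had arrays in se-1 that did not overlap those in Col-0, all 3 higher in se-1, where 42.9% of the 15922 probe sets tested did not overlap in either direction. In ago1-27 against Col-0 it was 3 of 4, all higher in ago1-27, with 40.8% of all tested. In se-1 p35S::MIR156 against se-1 it was 3 of 4, all lower with the transgene, with 41.7% of all tested. In se-1 p35S::MIR156 against Col-0 it was 4 of 4, 3 higher and THI2.1 lower, with 41.1% of all tested. In se-1 against ago1-27 it was AT2G43620 alone, 1 of 4, with 43.3% of all tested. With 2 arrays a genotype such separation is common, and the genes were chosen on these contrasts, so nothing is read from the counts. Several comparisons also share arrays: Col-0 enters 3 of them and se-1 enters 3, with se-1 against Col-0 counted in both.

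The chitinase genes AT2G43590 and AT2G43620 belong to a run of 6 chitinase genes on chromosome 2. In the gene order of assembly TAIR10.1 this run is CHI (AT2G43570), AT2G43580, AT2G43590, AT2G43600, AT2G43610 and AT2G43620, with 2 non-coding genes before the last. The other 4 genes were not used to choose the members, and those bright enough were tested for differences between genotypes. The lists and the tests were, however, set with earlier results of these data known. The p-values of these neighbouring genes carry that limit. AT2G43580 was within background on 8 of 8 arrays, with signals between 0.776 and 6.36, and was not tested. Whether probes of these related genes also bind each other's transcripts was not tested.

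AT2G43610 rose in se-1. Its signals were 231 and 206 in se-1 p35S::MIR156, 256 and 369 in se-1, 122 and 176 in ago1-27, and 106 and 84.3 in Col-0. Both se-1 arrays lay above all arrays of the other genotypes, and both Col-0 arrays below all others. It was 1.55 higher in se-1 than in Col-0 on the log2 scale (SE 0.225, limma adjusted p = 0.00214), a call that held under all 13 alternatives, with adjusted p between 0.00144 and 0.0447. It was also called higher in se-1 p35S::MIR156 than in Col-0 (1.08, limma adjusted p = 0.0329) and in se-1 than in ago1-27 (0.99, adjusted p = 0.0237), while ago1-27 against Col-0 gave 0.56 (adjusted p = 0.297) and se-1 p35S::MIR156 against se-1 gave -0.47 (adjusted p = 0.558). The call against Col-0 in the transgenic line ended without each of the 4 arrays (adjusted p between 0.150 and 0.272). The call against ago1-27 ended without ago1-27 replicate 1 (0.124) or se-1 replicate 2 (0.222).

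AT2G43600 rose in both lines with the se-1 allele. Its signals were 106 and 144 in se-1 p35S::MIR156, 130 and 116 in se-1, 51.0 and 38.4 in ago1-27, and 51.0 and 38.1 in Col-0. The se-1 lines overlapped each other, as did ago1-27 and Col-0, and the pairs stood apart. It was 1.21 higher in se-1 p35S::MIR156 than in Col-0 on the log2 scale (SE 0.232, limma adjusted p = 0.0183), 1.204 higher in se-1 than in Col-0 (adjusted p = 0.0172) and 1.1995 higher in se-1 than in ago1-27 (adjusted p = 0.00847). The log2 difference was 0.01 between se-1 p35S::MIR156 and se-1 and 0.00 between ago1-27 and Col-0 (SE 0.232, limma adjusted p = 0.997 and 0.996). For the first of these pairs AT2G43590 and AT2G43620 had -0.81 and -1.31, and the difference between the genes was not tested. Both calls against Col-0 ended without each of their 4 arrays, with adjusted p between 0.0857 and 0.349 for se-1 p35S::MIR156 and between 0.0776 and 0.153 for se-1. The call against ago1-27 ended without ago1-27 replicate 2 (0.0595) or se-1 replicate 1 (0.0737).

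CHI, at the other end of the run, rose in ago1-27 and was not called elsewhere. Its signals were 62.1 and 48.9 in se-1 p35S::MIR156, 69.5 and 117 in se-1, 152 and 182 in ago1-27, and 81.3 and 51.0 in Col-0. Both ago1-27 arrays lay above the other 6. It was 1.17 higher in ago1-27 than in Col-0 on the log2 scale (SE 0.258, limma adjusted p = 0.0296), and this call ended without each of the 4 arrays (adjusted p between 0.0527 and 0.280). In se-1 it differed from Col-0 by 0.40 (adjusted p = 0.594) and from ago1-27 by -0.77 (adjusted p = 0.128). In se-1 p35S::MIR156 it differed from se-1 by -0.58 (limma adjusted p = 0.524) and from Col-0 by -0.18 (0.918). With no filter on dim probe sets the 6 calls of CHI, AT2G43600 and AT2G43610 other than that of AT2G43610 in se-1 against Col-0 ended, at adjusted p between 0.0561 and 0.163. Without a trend in eBayes the call of CHI (0.0608) and those of AT2G43610 in se-1 p35S::MIR156 against Col-0 (0.0949) and in se-1 against ago1-27 (0.0562) ended.

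**Figure D2:**
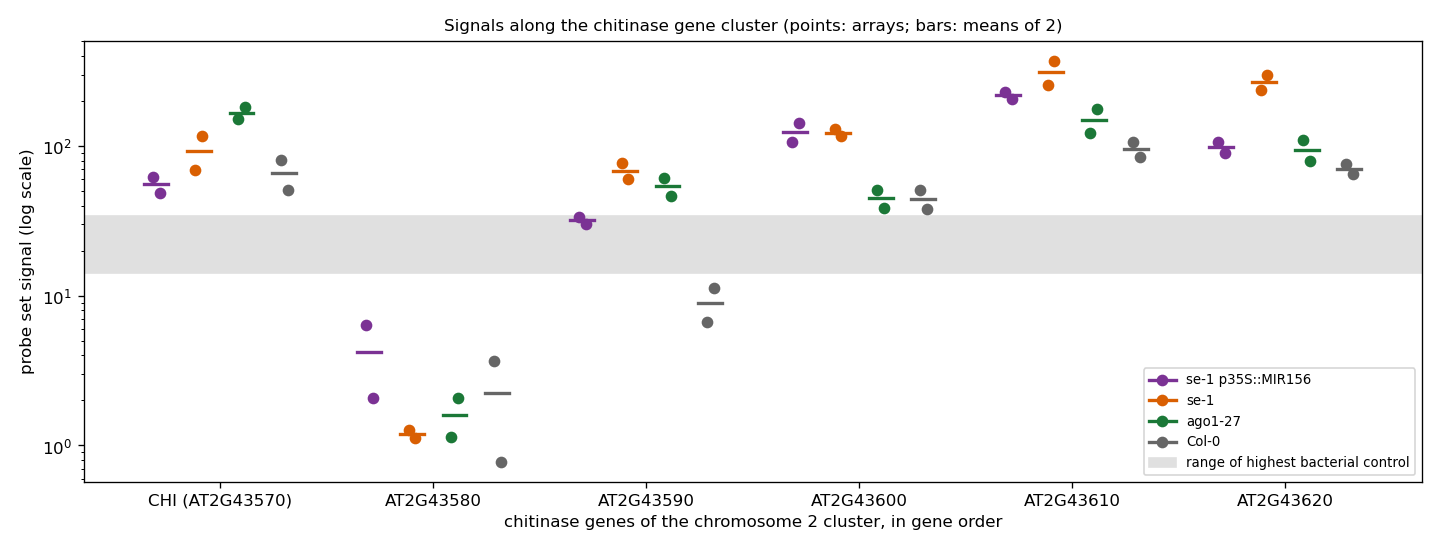
Signals of the run of chitinase genes on chromosome 2, in gene order along the axis, for each genotype; points are the arrays of a genotype, bars are their means, the grey band is the range of the highest bacterial controls, and the signal axis is logarithmic. Levels compare between genotypes within a gene, not between genes. CHI is highest in ago1-27, AT2G43600 is high in se-1 p35S::MIR156 and se-1, AT2G43610 and AT2G43620 are highest in se-1, and AT2G43580 is within background on 8 of 8 arrays.

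The chitinase list, run included, held 22 genes other than the chosen pair. Of these, 13 had a listed probe set and 7 were bright enough to be tested. The 7 include CHI, AT2G43600 and AT2G43610 of the run. ChiC, which encodes a class V chitinase, gave 136.5 ± 8.43 in se-1 p35S::MIR156, 57.0 ± 24.6 in se-1, 30.4 ± 9.11 in ago1-27 and 70.9 ± 13.1 in Col-0 (SD, n = 2). Its highest level was thus in the transgenic line, where AT2G43590 and AT2G43620 were below se-1. The ChiC difference between se-1 p35S::MIR156 and se-1 was 1.104 (SE 0.265, limma adjusted p = 0.127), that between ago1-27 and Col-0 was -0.91 (adjusted p = 0.115), and neither passed the threshold. AT3G47540, AT4G01700 and AT4G19820 were not called in any of the 5 comparisons with all 8 arrays. Their log2 differences lay between -0.83 and 0.48, and AT4G01700 and AT4G19820 had single arrays within background in several genotypes. The lowest of these values, that of AT4G01700 in se-1 against ago1-27, rested on 1 array: it was 0.06 without se-1 replicate 1 (limma adjusted p = 0.973) and -1.72, a call, without se-1 replicate 2 (0.0285). The 6 untested chitinase genes with a probe set include AT2G43580 of the run. Their signals lay between 0.598 and 31.05, above background on at most 3 of 8 arrays.

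The other thionin genes gave no level to compare. AT1G66100 and AT2G15010 were within background on 8 of 8 arrays, with signals between 0.803 and 16.9, so of 4 listed thionin genes only the chosen pair was measured.

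Other defence genes were taken from 6 lists of 104 genes in all: chitinases, thionins, plant defensins, jasmonate genes, salicylic acid and pathogenesis-related genes, and chitin perception genes. Of these genes, 32 had a probe set of their own in the probe table, and 14 apart from the chosen 4 were tested. That table lists 14016 of 22810 probe sets, so genes counted as without one may still be read by an unlisted probe set. In se-1 against Col-0, 2 of the 14 were called by limma at an adjusted p under 0.05, AT2G43600 and AT2G43610, both higher, where 1.09% of all probe sets were called. The median log2 difference of the 14 was 0.08, and that of all probe sets was 0.02. In ago1-27 against Col-0, 1 of 14 was called, CHI, higher, with 1.66% of all probe sets, and the medians were 0.27 for the 14 and 0.02 for all.

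In se-1 p35S::MIR156 against se-1, 0 of the 14 were called by limma and 2 had an unadjusted p under 0.05, with 0.358% of all probe sets called and medians of -0.01 for the 14 and -0.03 for all. In se-1 p35S::MIR156 against Col-0, 2 of 14 were called, again AT2G43600 and AT2G43610 and both higher, with 0.842% of all probe sets called and medians of 0.01 and -0.02. In se-1 against ago1-27 the same 2 genes of 14 were called higher, with 3.37% of all probe sets called and medians of 0.09 and 0.00. With all 8 arrays in the fit, the calls among these 14 genes were of CHI, AT2G43600 and AT2G43610, all in the run on chromosome 2. Without se-1 replicate 2, AT4G01700, outside the run, was called lower in se-1 than in ago1-27 (limma adjusted p = 0.0285) and AT2G43610 no longer was called there (0.222).

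The remaining lists held few tested genes. The 3 tested plant defensin genes, PDF1.4, LCR69 and LCR68, encode small antimicrobial peptides and had 0 calls by limma in the 5 comparisons. In ago1-27 against Col-0, 2 had an unadjusted p under 0.05, and in se-1 against ago1-27, 1 did. PDF1.4 was above background on only 4 of 8 arrays, and within it on both arrays of se-1 and of ago1-27. LCR69 gave 6609 ± 28.3 in se-1 p35S::MIR156, 7484 ± 1301 in se-1, 9338 ± 907 in ago1-27 and 6919 ± 1234 in Col-0 (SD, n = 2). GRX480 and SAG101, of the salicylic acid list, had 0 calls by limma, with 1 unadjusted p under 0.05 in ago1-27 against Col-0. GRX480 was above background on 5 of 8 arrays and SAG101 on 7 of 8. BIK1 and AT5G25930, of the chitin perception list, had 0 calls by limma. The 1 unadjusted p under 0.05, in se-1 against ago1-27, was that of AT5G25930, which was entered in that list under another gene's name. Of 31 jasmonate genes, which matter for THI2.1, only JMT had a listed probe set, and its signals lay between 0.806 and 7.02, within background on 8 of 8 arrays. Jasmonate genes without a listed probe set were not examined, so the state of the jasmonate pathway was not assessed here.

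**Figure D3:**
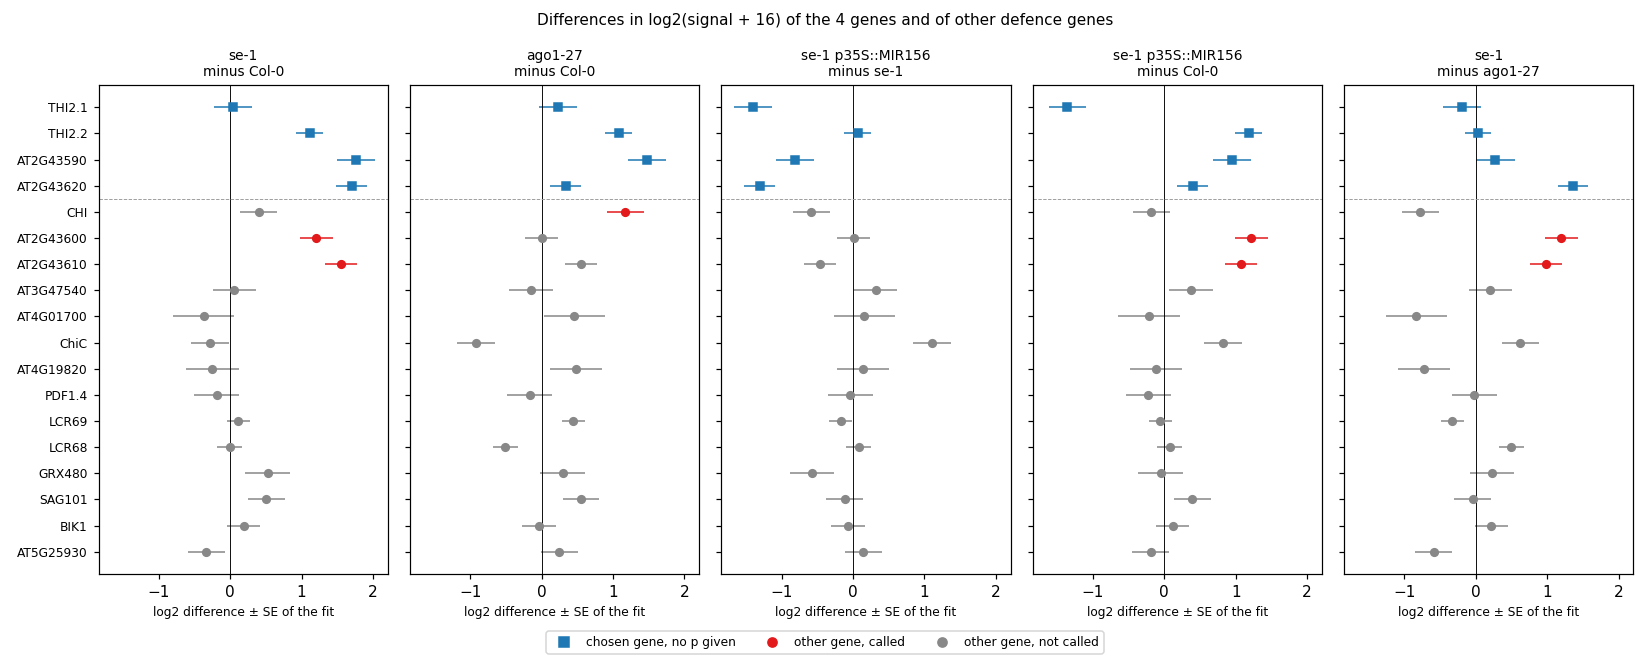
Log2 differences in log2(signal + 16) for the 4 chosen genes (squares) and the 14 other tested defence genes (circles), 1 panel per comparison, with bars for the SE of the fit. Red circles mark genes called by limma at an adjusted p under 0.05. The called circles are CHI, AT2G43600 and AT2G43610 only, and no p is given for the squares.

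Among 8821 other probe sets paired with a single gene, the closest patterns over the 8 arrays were taken by Pearson's r on the log2 scale, as a description and with no p. With so few arrays and so many probe sets compared, high values of r occur for every gene. For AT2G43590 these were AT2G16365 (r = 0.967), AT2G22900 (0.939) and AT3G08670 (0.933). AT2G16365, the closest, gave 329 ± 0.701 in se-1 p35S::MIR156, 387 ± 17.3 in se-1, 355 ± 4.37 in ago1-27 and 258 ± 4.61 in Col-0 (SD, n = 2), the same order with a much smaller span. For AT2G43620 they were AT3G54790 (0.974), AT3G08020 (0.969) and AT5G43745 (0.965), of which AT3G54790 gave 242 ± 11.1 in se-1 p35S::MIR156, 305 ± 4.73 in se-1, 240 ± 16.5 in ago1-27 and 216 ± 11.7 in Col-0 (SD, n = 2).

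For THI2.1 the closest were nad9 (0.968), a mitochondrial gene for a subunit of respiratory complex I, AT5G16070 (0.966) and AT3G47610 (0.965). The nad9 probe set gave 39.2 ± 0.154 in se-1 p35S::MIR156, 59.8 ± 3.77 in se-1, 67.8 ± 7.53 in ago1-27 and 57.6 ± 8.43 in Col-0 (SD, n = 2). For THI2.2 they were ALDH11A3 (0.968), an aldehyde dehydrogenase gene, AT3G48020 (0.957) and AT4G29020 (0.948). ALDH11A3 gave 1617 ± 118 in se-1 p35S::MIR156, 1690 ± 203 in se-1, 1665 ± 17.6 in ago1-27 and 1087 ± 1.22 in Col-0 (SD, n = 2). None of the 12 was a gene of the defence lists. Apart from the chosen 4, only 14 genes of those lists had a probe set among the 8821 compared, so nothing is read from this.

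Between the chosen genes themselves, r over the 8 arrays was 0.73 for the chitinase pair and -0.34 for the thionin pair, and 0.81 for AT2G43590 with THI2.2. The genotype means set much of these values. On deviations from the genotype means r was 0.04 for the chitinase pair, -0.82 for the thionin pair and -0.46 for AT2G43590 with THI2.2, over 8 arrays that hold 4 free deviations.

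Among the tested markers of other tissues, only the root marker PYK10 was called with all 8 arrays. Of 12 root markers, 5 had a listed probe set. Of these only PYK10, a beta-glucosidase gene abundant in roots and seedlings, was above background on 8 of 8 arrays. Root markers EXPA7, AT5G66815 and AT2G16005 were within background throughout, and EXPA18 was above it on 2 of 8 arrays. The summed root signal, most of it from PYK10 on every array, ran from 1555 to 2356 in se-1 p35S::MIR156 and from 683 to 985 in se-1. It ran from 171 to 254 in ago1-27 and from 1670 to 1691 in Col-0. By limma PYK10 was called lower in se-1 than in Col-0 (-1.09, adjusted p = 0.0455) and lower in ago1-27 than in Col-0 (-3.24, adjusted p = 3.96e-06). It was called higher in se-1 p35S::MIR156 than in se-1 (1.28, limma adjusted p = 0.0356) and higher in se-1 than in ago1-27 (2.15, adjusted p = 0.000144). The PYK10 call in se-1 against Col-0 held in 5 of 13 alternatives and that in se-1 p35S::MIR156 against se-1 in 7 of 13; both held without se-1 replicate 2 and ended without each other array of the pair. In se-1 and in ago1-27 against Col-0 every chosen gene had the sign opposite to PYK10, THI2.1 by less than its SE. In se-1 p35S::MIR156 against se-1, AT2G43590, AT2G43620 and THI2.1 had the opposite sign and THI2.2 (0.06) the same. In se-1 against ago1-27, THI2.1 (-0.19) had the opposite sign and the other chosen genes the same. In se-1 p35S::MIR156 against Col-0 (0.19 for PYK10, not called), THI2.1 (-1.36) again had the opposite sign and the others the same. The part of the root markers in the results was not tested.

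Of 14 green leaf markers, 3 had a listed probe set: LHCB4.1, RCA and PRK. Their sums were 6567 to 7764 in se-1 p35S::MIR156, 6353 to 6374 in se-1, 8156 to 10148 in ago1-27, and 6970 to 7376 in Col-0. With all 8 arrays limma called 0 of the 3 in any comparison, while 2 in ago1-27 against Col-0 and 3 in se-1 against ago1-27 had an unadjusted p under 0.05. Without ago1-27 replicate 1, RCA was called by limma in ago1-27 against Col-0 (0.90, adjusted p = 0.0240) and in se-1 against ago1-27 (-0.86, adjusted p = 0.0215). The part of the leaf markers in the results for CHI, AT2G43600 and the chosen genes was not tested.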

How the data were processed

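RNA of 8 apex samples was hybridised to 1 array each. The authors deposited linear probe set intensity values, made with GCOS per the submitters' processing notes (no version or signal algorithm is given in the sources used here). The arrays had been scaled before deposit, since 22810 probe sets gave the same mean of 200.02, trimmed by 2%, on each. The files give no detection calls, so background was judged by the bacterial controls. The number of arrays, 2 per genotype, limits the precision.

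Groups came from the genotype labels. The 64 control probe sets and the lowest 30% by mean log2(signal + 16) were left out, which kept 15922 of 22746, and no further normalization was applied. limma 3.58.1 in R 4.3.3 (lmFit, eBayes with a trend, two-sided) fitted 1 mean per genotype to all 8 arrays, with 4 residual and 11.27 prior degrees of freedom, and probe sets with a Benjamini-Hochberg adjusted p under 0.05 over all tested are called. The procedure was also run on simulated data with independent normal noise at the fitted spread. Such data cannot address technical replicates or array effects. Errors of means are the SD of 2 arrays.

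The probe table pairs 13513 probe sets with 1 gene and 503 with several. Of the identifiers paired with 1, 13436 matched the gene table of TAIR10.1, used for names and gene order only. Each gene is read by its brightest probe set. The genes named are the chosen 4, every tested gene of the chitinase and thionin lists, called genes of the other lists and of the marker lists, the 3 closest patterns per chosen gene, and SE. AT2G43580, AT1G66100, AT2G15010, PDF1.4, LCR69, LCR68, GRX480, SAG101, BIK1, AT5G25930, JMT and the uncalled markers fall outside that rule. The first 3 are untested genes of the run and of the thionin list. The others are named because their lists hold few tested genes. AT5G25930 was entered in the chitin perception list under another gene's name and is kept and counted there. The chosen genes, the lists and the tests were set with earlier results of these data known. Replicate numbers were checked for pairing: between genotypes, deviations of same-numbered arrays correlated with r between -0.21 and 0.11, so the numbers are not used as pairs. Alternatives changed the pseudocount, filter, normalization, variance model, genotypes in the fit, and the arrays kept.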

Additional observations from a re-analysis of the deposited data

How the results depend on the processing

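With 2 arrays a genotype and signals near the bacterial controls for AT2G43590 in Col-0 and THI2.1 in se-1 p35S::MIR156, the sizes of their differences depend on the pseudocount. Of 160 values of the 20 differences of the chosen genes under alternatives, 146 moved by less than the SE of the fit and 14 by more, all with pseudocounts of 1 or 64, and 0 differences of that size changed sign. Among the alternatives is a replicate block, which cannot change a difference when every genotype has both replicates. Its values are among the 146 by construction. Differences of THI2.1 and THI2.2 near 0 changed sign within the SE in 5 comparisons of a gene. With pseudocounts of 1 and 64, AT2G43590 gave 2.83 and 0.86 in se-1 against Col-0, 2.48 and 0.69 in ago1-27 against Col-0, and 1.76 and 0.40 in se-1 p35S::MIR156 against Col-0. THI2.1 gave -2.18 and -0.68 in se-1 p35S::MIR156 against se-1 and -2.14 and -0.66 against Col-0. With 64 alone, AT2G43590 gave -0.46 in se-1 p35S::MIR156 against se-1, and AT2G43620 gave 1.29 in se-1 against Col-0, -1.03 in se-1 p35S::MIR156 against se-1 and 1.06 in se-1 against ago1-27.

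The counts of called probe sets were 173 in se-1 against Col-0, 265 in ago1-27 against Col-0, 57 in se-1 p35S::MIR156 against se-1, 134 in se-1 p35S::MIR156 against Col-0 and 537 in se-1 against ago1-27. In that order they were 68, 98, 15, 28 and 249 with no filter, and between 32 and 89, 81 and 337, 10 and 41, 14 and 42, and 257 and 538 with single arrays left out. Without a trend they were 25 in se-1 p35S::MIR156 against se-1 and 75 against Col-0. With only the 2 genotypes compared in the fit they were 280 in se-1 p35S::MIR156 against Col-0 and 263 in se-1 against ago1-27. The cause of these shifts was not tested. Where an array is left out, the lone array is assumed to vary like the other genotypes.

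Of the 14 other defence genes, the calls by limma in se-1 against Col-0 went to 1 (of 2) with no filter, with the lowest 50% left out, when AT2G43600 was not tested, and without each array (1 to 1). In ago1-27 against Col-0 they went to 0 (of 1) with no filter, without a trend and without each array (0 to 0). In se-1 p35S::MIR156 against Col-0 they went to 0 (of 2) with no filter and without each array (0 to 0), and to 1 with the lowest 50% left out and without a trend. In se-1 against ago1-27 they went to 0 (of 2) with no filter, to 1 with the lowest 50% left out, without a trend and with only the 2 genotypes compared, and to between 1 and 2 with single arrays left out; the 2 without se-1 replicate 2 were AT2G43600 and AT4G01700, in place of AT2G43610. With a replicate block the counts of called probe sets were 187, 271, 59, 143 and 518, and the block changed no count of calls by over 1.5 times and ended no call among the defence genes.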
